A study of Mus musculus with 8 samples.

Results

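The p53 target genes examined here are 10 genes outside the BCL2 family and other than Cdkn1a: Mdm2, Ccng1, Sesn1, Phlda3, Eda2r, Gdf15, Btg2, Trp53inp1, Zmat3 and Aen. They were taken by symbol, with no threshold on their values but with earlier results of these data known. All 10 had a row among the 19457 genes of the deposited table. RNA was sequenced from keratinocytes, the cells that build the epidermis, grown in primary culture from mouse skin and harvested before they reached confluence. Wild-type mice (WT) gave 4 libraries and mice labelled HOIL1 ΔRING1 (HdR) gave the other 4. As the label says, HdR mice have HOIL-1 without its first RING domain; HOIL-1, the product of Rbck1, belongs to the complex that assembles linear ubiquitin chains (LUBAC). The labels give no age, strain background or treatment, and are silent on whether replicate libraries of 1 genotype were separate animals, so p-values reflect the spread among these libraries alone. The comparison asks how the level of each p53 target differs with the HOIL1 genotype.

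The transcription factor p53, encoded by Trp53, is held at a low level by the ubiquitin ligase Mdm2 and accumulates after DNA damage and other stresses. It then raises a set of genes that stop the cell cycle, repair DNA, slow growth or kill the cell, and Mdm2 itself is one of them, which closes a negative feedback loop. Several of the targets also answer to other regulators: Btg2 is an early response gene to growth factors, and Gdf15 is raised by the integrated stress response. The label "outside apoptosis" holds only in part for the genes as they are known, since Aen is named for an apoptosis-enhancing nuclease and Trp53inp1 and Eda2r have also been tied to cell death.

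The p53 targets went both ways. Ccng1 rose and Btg2 fell, each by more than the spread between libraries, Trp53inp1 fell, and Aen, Phlda3 and Zmat3 rose by small amounts. Mdm2 and Sesn1 were not called, Eda2r was not called and had 1 library of each genotype among the other genotype's values, and Gdf15 was too low for the test. Of the 9 genes tested, 4 were called higher in HdR and 2 lower by limma at a Benjamini-Hochberg adjusted p under 0.05. That is 6 of 9, where 45% of all 11870 tested genes were called, 21.2% higher and 23.8% lower. The median log2 fold change (HdR minus WT) of the 9 was 0.11, against -0.01 for all tested genes, and the median size of the change without its sign was 0.21 against 0.15. When limma (treat) tested for a change beyond 1.2-fold, Ccng1 was higher (adjusted p = 0.000155), Btg2 was lower (adjusted p = 9.36e-06) and no other member passed. Of all tested genes 7.47% passed it, 2.89% higher and 4.58% lower.

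**Figure D1:**
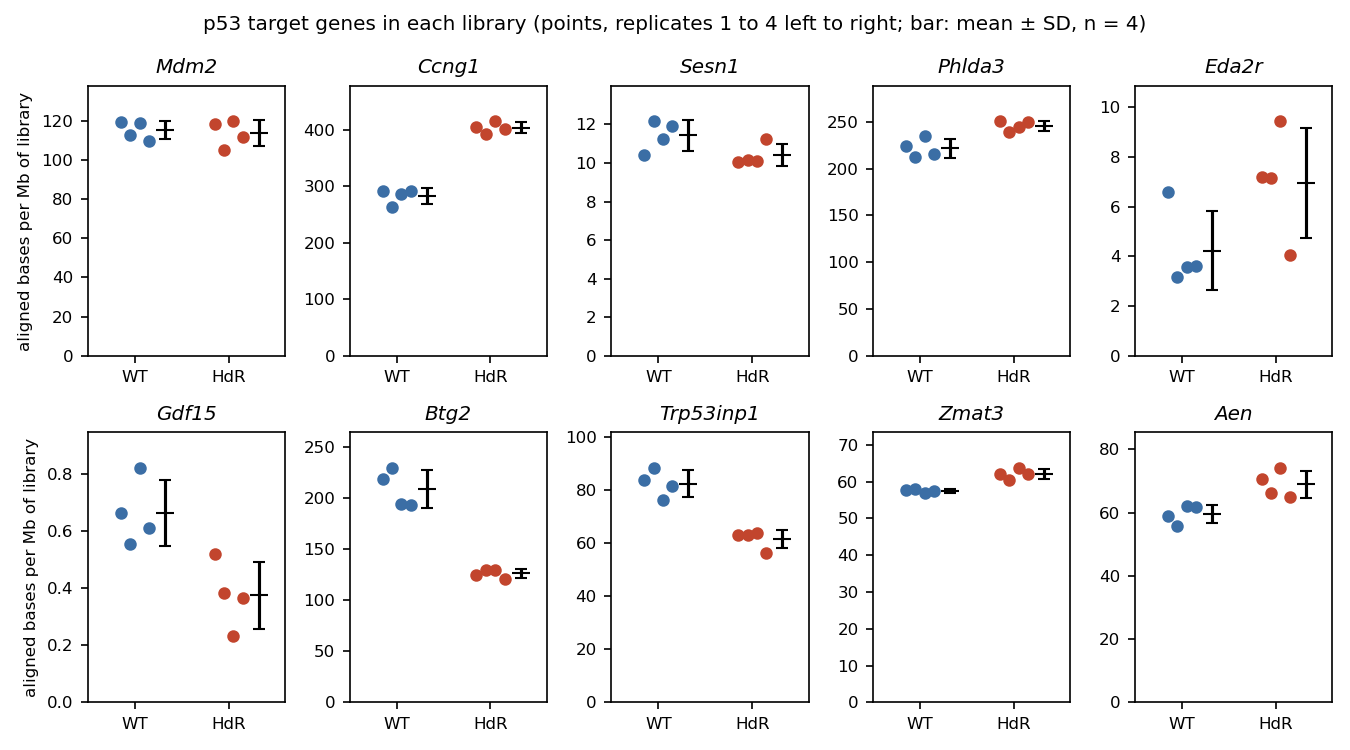
Level of each gene in aligned bases per Mb of library (vertical axes start at 0) in the 4 WT and 4 HdR libraries, with the mean and SD beside the points. The genotypes are apart for Ccng1, Phlda3, Gdf15, Btg2, Trp53inp1, Zmat3 and Aen and overlap for Mdm2, Sesn1 and Eda2r.

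Levels are aligned bases summed over a gene per megabase of the scaled library (written per Mb). Library depth ran from 4.78 to 5.43 Gb of aligned bases in WT and from 2.31 to 4.31 Gb in HdR, so the HdR libraries were all the shallower ones and depth cannot be told apart from genotype. Rbck1, the altered gene, went from 87.5 ± 3.4 per Mb to 43.7 ± 1.87 in HdR (SD, n = 4). On the log2 scale the difference was -0.99 ± 0.047 (SE, limma adjusted p = 7.25e-11), and the sum over the gene does not show which part is missing. All 11 keratinocyte markers passed the filter, with summed levels of 40530 to 43700 per Mb in WT and 43330 to 44730 in HdR, and 5 were called higher and 2 lower. The 8 hair follicle and sebocyte markers summed to 173.6 to 207.9 per Mb in WT and 170.5 to 186.9 in HdR, with 1 of 4 tested lower. The 8 melanocyte markers summed to 50.8 to 58.7 per Mb in WT and 26.5 to 28.7 in HdR, with 5 of 6 tested lower, and the part of these markers in the results below was not tested. Beside these counts, 21.2% of all tested genes were called higher and 23.8% lower. Sums for 7 fibroblast markers (at most 6.29 per Mb), 8 immune markers (at most 6.98, with Cd207, Adgre1 and Lyz2 at 0 in all libraries) and 5 endothelial markers (at most 2.75) were low in both genotypes. In such cultures fewer cells of a type and less RNA per cell cannot be told apart.

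Set per kilobase of exon, the members spanned a wide range of levels in WT keratinocytes. Phlda3 stood highest at 142 ± 6.49 per Mb per kb (SD, n = 4), followed by Ccng1 at 80.7 ± 4.0 and Btg2 at 76.2 ± 6.7, and Ccng1 and Btg2 overlapped. Mdm2 (22.6 ± 0.899), Trp53inp1 (12.8 ± 0.779), Aen (10.3 ± 0.498), Zmat3 (5.03 ± 0.0439) and Sesn1 (2.87 ± 0.198) came next, and no neighbours in that order overlapped. Eda2r (0.719 ± 0.269) and Gdf15 (0.358 ± 0.0622) were the lowest. In HdR, Ccng1 was at 115 ± 2.63 and Btg2 at 46.1 ± 1.52 per Mb per kb. Exon lengths are the union of all annotated exons, which understates the level of a gene that uses only some of them.

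The feedback genes gave different answers. Mdm2 (chromosome 10, 117688875 to 117710758, minus strand, GRCm38) encodes the ubiquitin ligase that marks p53 for destruction. Its values were 119, 113, 119 and 110 per Mb in WT libraries 1 to 4 and 118, 105, 120 and 112 in HdR libraries 1 to 4. The genotypes overlapped almost entirely, with means of 115 ± 4.57 and 114 ± 6.71 (SD, n = 4). The log2 fold change was -0.02 (95% interval -0.12 to 0.08, limma adjusted p = 0.768), an interval that leaves room for only a small change in either direction, and its sign turned without HdR 2 (0.016), under upper-quartile scaling (0.021) and when only library totals were used (0.0077).

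Ccng1 (chromosome 11, 40748552 to 40755311, minus strand) encodes cyclin G1, an atypical cyclin that brings the phosphatase PP2A to Mdm2. Its values were 292, 263, 287 and 292 per Mb in WT and 405, 393, 415 and 402 in HdR. Every HdR library lay above every WT library, and the gap between the groups was wider than the range within either. The mean rose from 283 ± 14.1 to 403 ± 9.24 (SD, n = 4), 42.4% higher, or 0.51 ± 0.039 on the log2 scale (SE; adjusted p = 2.3e-08 by limma). Across the 20 alternative settings it stayed between 0.47 and 0.55 and was called in all 20.

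In the 300-base promoters at hand, a p53 motif was found in Ccng1. The stretches shown belong to the called members that rose and fell the most. They are the RefSeq promoters (GRCm38.p6, 250 bases before to 50 after the start) of Ccng1, chr11:40755237-40755536, and Btg2, chr1:134079106-134079405, both on the minus strand and written 5′ to 3′. Capitals mark the match to the p53 consensus in Ccng1 and the letters TGACGTCA, the cyclic AMP response element, in Btg2.
Ccng1 promoter: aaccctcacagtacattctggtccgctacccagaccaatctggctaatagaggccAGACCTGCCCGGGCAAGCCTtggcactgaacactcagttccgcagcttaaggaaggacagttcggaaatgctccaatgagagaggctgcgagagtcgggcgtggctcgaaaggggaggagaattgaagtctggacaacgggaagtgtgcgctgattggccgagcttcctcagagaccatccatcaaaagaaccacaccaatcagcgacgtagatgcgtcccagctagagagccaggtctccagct
Btg2 promoter: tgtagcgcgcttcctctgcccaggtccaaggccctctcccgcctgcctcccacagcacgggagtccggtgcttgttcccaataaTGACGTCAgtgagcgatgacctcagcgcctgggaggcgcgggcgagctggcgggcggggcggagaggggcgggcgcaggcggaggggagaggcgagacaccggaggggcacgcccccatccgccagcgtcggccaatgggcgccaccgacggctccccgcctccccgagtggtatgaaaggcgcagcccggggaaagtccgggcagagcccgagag

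The p53 consensus was searched for as a pair of adjoining decamers, each with a fixed C and G around its centre. Pairs with bases between the decamers were not searched for. A match kept the C and G of both decamers and had at most 2 mismatches over 20 bases, and since the pattern is its own reverse complement, reading 1 strand covers both. Trp53inp1 and Zmat3 were not searched. The promoter table held the other 8 of the 10 members, with 11 promoters between them, and 1 of the 11 matched, that of Ccng1, where 0.326% of all 32851 promoters did. The Ccng1 match began 195 bases before the start and had 1 mismatch. With up to 3 mismatches, Aen and Sesn1 also matched, against 1.38% of all promoters. In the 3 sites below, capitals mark bases that meet the consensus and lower case the mismatches.
Ccng1 site, chr11:40755462-40755481, minus strand: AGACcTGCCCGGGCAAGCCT
Aen site, chr7:78895937-78895956, plus strand: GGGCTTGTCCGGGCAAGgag
Sesn1 site, chr10:41887266-41887285, plus strand: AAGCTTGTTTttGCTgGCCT
No match was found in these windows for Mdm2, Phlda3, Eda2r, Gdf15 and Btg2. This says only that no adjoining pair with the fixed C and G and at most 3 mismatches is there. Adjoining pairs further from the consensus were not looked for. The element TGACGTCA, looked for on both strands after the Btg2 promoter had been read, began 166 bases before the Btg2 start and was in no other member promoter of the table, where 1.79% of all promoters held it. A match is a description of letters and was not tested as a bound site.

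Of the pair that restrains growth signalling, Phlda3 rose slightly and Sesn1 was not called. Phlda3 (chromosome 1, 135766119 to 135769136, plus strand) encodes a pleckstrin-homology protein that competes with the kinase Akt for membrane lipids. Its values were 224, 212, 235 and 215 per Mb in WT and 251, 239, 244 and 249 in HdR. The lowest HdR library stood just above the highest WT library. The log2 fold change was 0.15 ± 0.038 (SE, limma adjusted p = 0.00414), a rise of 10.8% in the mean, and it was called in 19 of 20 alternatives, the exception being the test against a fold of 1.2 (adjusted p = 1).

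Sesn1 (chromosome 10, 41809935 to 41908424, plus strand) encodes sestrin 1, which holds back the growth kinase complex mTORC1 when amino acids are short. Its values were 10.4, 12.2, 11.3 and 11.9 per Mb in WT and 10.1, 10.2, 10.1 and 11.3 in HdR. Most HdR libraries lay below the WT range, but HdR 4 lay inside it. The log2 fold change was -0.13 (95% interval -0.29 to 0.04, limma adjusted p = 0.205), and after thinning all libraries to the depth of the smallest it was 0.01.

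The receptor and the ligand among the members were the most weakly expressed. Eda2r (chromosome X, 97333840 to 97377216, minus strand) encodes the receptor for the A2 form of ectodysplasin, a member of the TNF receptor family. Its values were 6.59, 3.17, 3.58 and 3.61 per Mb in WT and 7.19, 7.16, 9.44 and 4.06 in HdR. In 3 of 4 HdR libraries Eda2r was above every WT library, while WT 1 exceeded HdR 4. The mean was 4.24 ± 1.58 in WT and 6.96 ± 2.21 in HdR (SD, n = 4), and the log2 fold change of 0.60 (95% interval -0.02 to 1.22) did not pass (limma adjusted p = 0.105). It passed without WT 1 (log2 fold change 0.79, adjusted p = 0.0107), without HdR 4 (0.80, adjusted p = 0.00943) and without both WT 4 and HdR 4 (0.75, adjusted p = 0.0251). With replicate number added to the limma model it also passed (0.60, adjusted p = 0.0465), which made 4 of 20 alternatives. Eda, the gene of the ectodysplasin ligands, was not called, with 4.72 per Mb in WT and 5.16 in HdR. Eda was named after its values were seen.

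Gdf15 (chromosome 8, 70629393 to 70632456, minus strand) encodes a secreted TGF-β family hormone that rises in stressed tissue. Its values were 0.665, 0.556, 0.823 and 0.61 per Mb in WT and 0.521, 0.384, 0.231 and 0.365 in HdR. The genotypes did not overlap, but the unscaled sums behind these levels were small. At 302 bases per read pair they come to only 8.86 to 14.4 pairs per WT library. In HdR they come to 2.81 to 7.5 pairs per library. The mean of 0.664 ± 0.115 in WT and 0.375 ± 0.118 in HdR (SD, n = 4) was under the minimum of 1 per Mb, so Gdf15 was left out of the main test. With no minimum its log2 fold change was -0.28 (limma adjusted p = 0.03), on a scale where the added 1 shrinks the change of so low a gene.

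**Figure D2:**
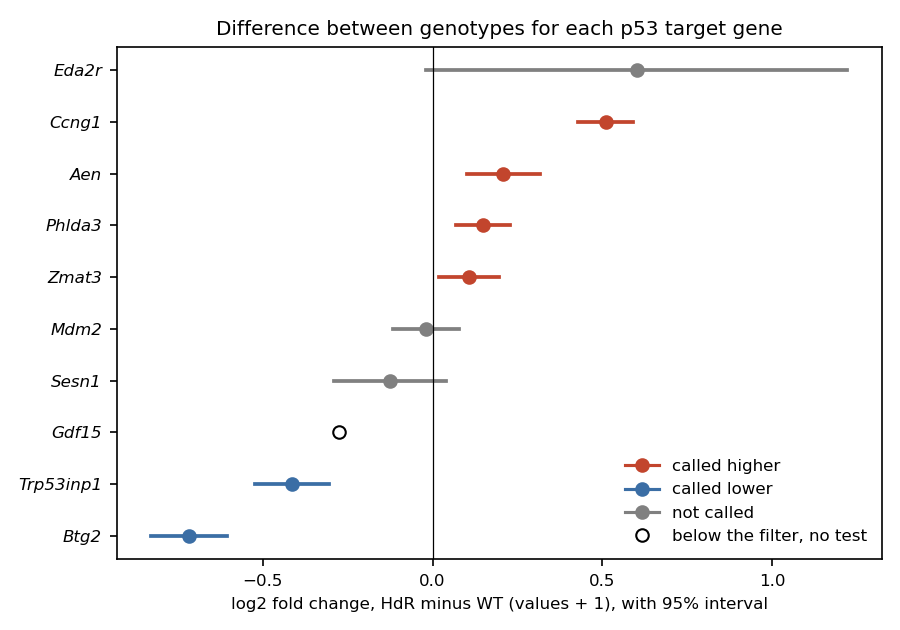
Log2 fold change, HdR minus WT, of each gene with its 95% interval from limma, ordered by size. Ccng1, Aen, Phlda3 and Zmat3 lie above 0, Btg2 and Trp53inp1 below it, the intervals of Eda2r, Mdm2 and Sesn1 cross 0, and Gdf15 is drawn open without an interval.

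Both stress regulators fell. Btg2 (chromosome 1, 134075170 to 134079120, minus strand) encodes an antiproliferative protein that recruits the machinery which shortens poly(A) tails of mRNA. Its values were 219, 230, 194 and 193 per Mb in WT and 125, 130, 130 and 121 in HdR. Every HdR library was far below every WT library, and the HdR libraries were the more alike. The mean fell from 209 ± 18.4 to 127 ± 4.17 (SD, n = 4), 39.5% lower, or -0.72 ± 0.052 on the log2 scale (SE; adjusted p = 3.56e-08 by limma). This was the largest change among the called members, and it was called in all 20 alternatives, between -0.75 and -0.67.

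Trp53inp1 (chromosome 4, 11156431 to 11174379, plus strand) encodes a stress protein of nuclear bodies that also acts in autophagy. Its values were 83.7, 88.5, 76.4 and 81.5 per Mb in WT and 63.1, 63.2, 63.8 and 56.5 in HdR. The groups were clearly apart, with HdR 4 the lowest of all. The mean fell from 82.5 ± 5.04 to 61.6 ± 3.44 (SD, n = 4), 25.3% lower. The log2 fold change was -0.41 ± 0.052 (SE, limma adjusted p = 6.71e-06), and the test against a fold of 1.2 did not pass (adjusted p = 0.0607).

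The RNA-binding and nuclease genes rose slightly. Zmat3 (chromosome 3, 32334792 to 32366014, minus strand) encodes a zinc finger protein that binds RNA and regulates splicing. Its values were 57.8, 57.9, 56.8 and 57.6 per Mb in WT and 62.1, 60.3, 63.8 and 62 in HdR. Its coefficient of variation was 0.873% in WT, the lowest of the members there, and 2.27% in HdR, and its genotypes did not overlap. The log2 fold change was only 0.11 ± 0.041 (SE, limma adjusted p = 0.0431). The call was lost when any library other than HdR 2 was left out (adjusted p from 0.0598 without WT 2 to 0.114 without HdR 3) and after thinning (0.154).

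Aen (chromosome 7, 78895854 to 78911209, plus strand) encodes an exonuclease of the nucleolus and nucleus. Its values were 58.8, 55.8, 62 and 61.6 per Mb in WT and 70.7, 66.3, 74.2 and 64.8 in HdR. All 4 HdR libraries were above the WT range, HdR 4 by the least. The mean rose from 59.5 ± 2.89 to 69 ± 4.26 (SD, n = 4), 15.9% higher, or 0.21 ± 0.051 on the log2 scale (SE; adjusted p = 0.00313 by limma).

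Counted without a test, the values of WT and HdR did not overlap in 6 of the 9 tested members, 4 higher and 2 lower, where 41.1% of all tested genes were so separated, 19.8% higher and 21.3% lower. With upper-quartile scaling the members still divided into 4 higher and 2 lower, although among all called genes the share higher moved from 47.1% to 57.7%.

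**Figure D3:**
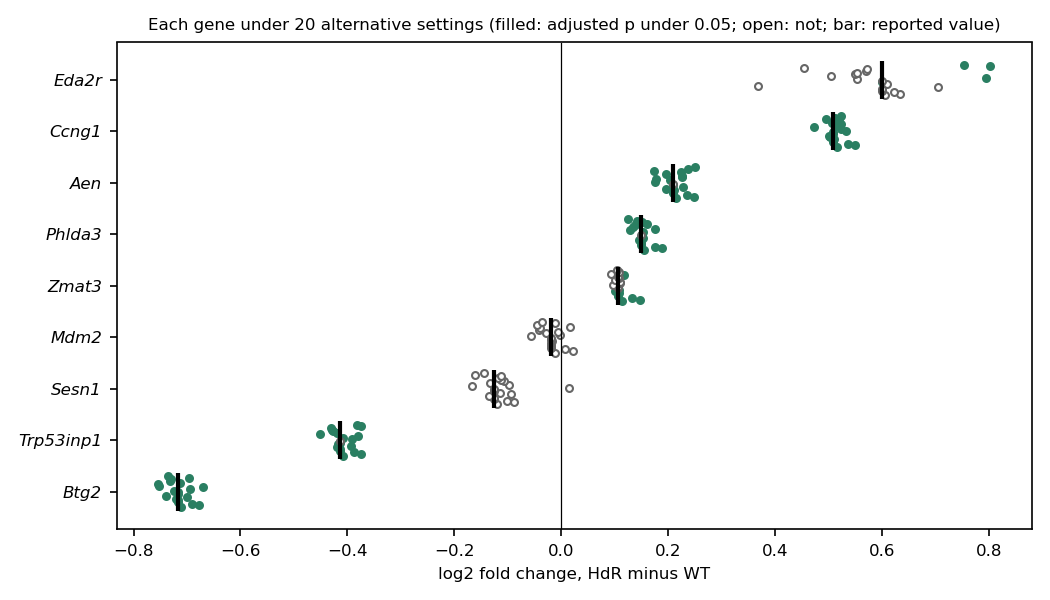
Log2 fold change of the 9 tested genes under each of 20 alternative settings (filled points, adjusted p under 0.05; open points, not) and as reported (black bars). Ccng1 and Btg2 are filled throughout, Zmat3 is filled in 9 of 20 and Eda2r in 4 of 20.

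Trp53 itself rose while its best-known target fell. Trp53 went from 133 ± 3.25 to 165 ± 6.61 per Mb (SD, n = 4), 0.31 ± 0.038 higher on the log2 scale (SE, limma adjusted p = 5.88e-06). Cdkn1a, the gene of the cell cycle inhibitor p21, went from 609 ± 27.5 to 535 ± 9.2 per Mb, a log2 fold change of -0.19 ± 0.036 (adjusted p = 0.000534). Of 19 tested genes for p53 and its regulators, 2 were higher (10.5%) and 4 lower (21.1%), where 21.2% of all tested genes were higher and 23.8% lower, and the median log2 fold change was 0.04. Mdm4, which encodes the Mdm2 relative that restrains p53, was lower (-0.35 ± 0.064, SE), and Atm, the gene of a DNA damage kinase, was higher (0.25 ± 0.077). These counts rest on single libraries: leaving out WT 1 gave 3 higher and 2 lower, WT 2 gave 4 and 1, HdR 1 gave 1 and 3, HdR 2 gave 2 and 1, and HdR 3 gave 1 and 2. They were 3 and 1 with upper-quartile scaling and 2 and 1 with library totals, and the Atm call was lost without HdR 1 (adjusted p = 0.058) or HdR 3 (0.0514) and after thinning (0.142).

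Other p53 targets of arrest, repair and metabolism were higher more often than lower. Of these 40 genes, 21 (52.5%) were higher and 8 (20%) lower, and the median was 0.14. Of all tested genes, 21.2% were higher and 23.8% lower, so the share lower was near that of all genes. Plk2, a polo-like kinase gene, went from 432 ± 20.8 to 691 ± 17.7 per Mb (SD, n = 4). Gadd45a, the growth arrest and DNA damage gene, went from 59.6 ± 1.85 to 86.5 ± 3.54, and Zfp365 from 7.72 ± 0.96 to 17 ± 1.77. Their log2 fold changes were 0.68 ± 0.038, 0.53 ± 0.044 and 1.05 ± 0.093 (SE, limma adjusted p of 1.45e-07 or lower). The number lower was 5 without HdR 4, with upper-quartile scaling and with library totals, and 4 after thinning, and against a fold of 1.2 the list had 8 higher and 1 lower.

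Apoptotic p53 targets were also higher more often than lower. Of 14 tested, 9 (64.3%) were higher and 2 (14.3%) lower, with a median of 0.24, where 21.2% of all tested genes were higher and 23.8% lower. Tnfrsf23, a decoy TRAIL receptor gene, rose from 36.2 ± 4.21 to 65 ± 2.06 per Mb and the death receptor gene Tnfrsf10b from 44.8 ± 0.925 to 56.2 ± 1.89 (SD, n = 4). Perp, a desmosomal p53 and p63 target, fell from 3929 ± 213 to 3112 ± 112. The median size of the change without its sign was 0.31, against 0.15 for all tested genes. The other lower gene was Bbc3 (-0.64 ± 0.094, SE), named after its value was seen. In the test for a change beyond 1.2-fold, 1 was higher and 1 lower, and Perp did not pass (limma treat adjusted p = 0.352).

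Of 18 tested relatives of the members, 7 were lower and 2 higher (median -0.04). That is 50% called, near the 45% of all tested genes. By direction, 38.9% were lower and 11.1% higher, where 23.8% of all tested genes were lower and 21.2% higher. Trp53inp2 fell by 0.55 ± 0.056 on the log2 scale (SE) beside Trp53inp1, and Btg1 fell by 0.39 ± 0.047 beside Btg2. Sesn2, the sestrin gene that also answers to ATF4, fell by 0.41 ± 0.043, while its relatives Sesn1 and Sesn3 (0.01 ± 0.12, outside the naming rule and chosen after its value was seen) were not called. The 2 higher genes were Zmat2 (0.17) and Phlda2 (0.30), also chosen after their values were seen, and the count was 1 when WT 1, HdR 1, HdR 2 or HdR 4 was left out and 5 with upper-quartile scaling.

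The last 3 lists place the members beside other programmes that share regulators with them. Their counts stand beside 21.2% of all tested genes higher and 23.8% lower, and 7.47% called against a fold of 1.2. Genes that p53 represses through p21 and the DREAM complex, which are mitotic genes, were higher in 13 of 15 and lower in none, with a median of 0.29, and Plk1, Cdc20 and Ccnb1 had log2 fold changes of 0.59 ± 0.063, 0.45 ± 0.045 and 0.35 ± 0.043 (SE). Against a fold of 1.2, 3 of them were called. All 16 targets of ATF4 and CHOP, Sesn2 among them, were lower, with a median of -1.02, and Atf5, Asns and Ddit4 were at -1.16 ± 0.041, -0.88 ± 0.032 and -1.15 ± 0.048. The part of this pathway in the Gdf15 and Sesn2 values was not tested. Immediate early genes, the class to which Btg2 also belongs, were lower in 14 of 17 and higher in 1 (median -0.60), and Dusp1, Junb and Ier2 were at -0.67 ± 0.039, -0.60 ± 0.038 and -0.71 ± 0.047. The 1 higher gene, Klf6 (0.10, chosen after its value was seen), lost its call without WT 1, WT 3, HdR 2 or HdR 3, while upper-quartile scaling gave 2 higher. The Btg2 value of -0.72 lay inside the range of the immediate early genes, from -1.79 to 0.10. That range is wide and also holds the median of all tested genes (-0.01). Whether Btg2 and these genes fell for a shared reason was not tested. The lists share Sesn2 (in 3 of them), Mdm4, Tob1 and Atf3 (in 2 each), so their counts are not independent. All the lists were also chosen with earlier results of these data known, so their shifts lend no independent support to the members.

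**Figure D4:**
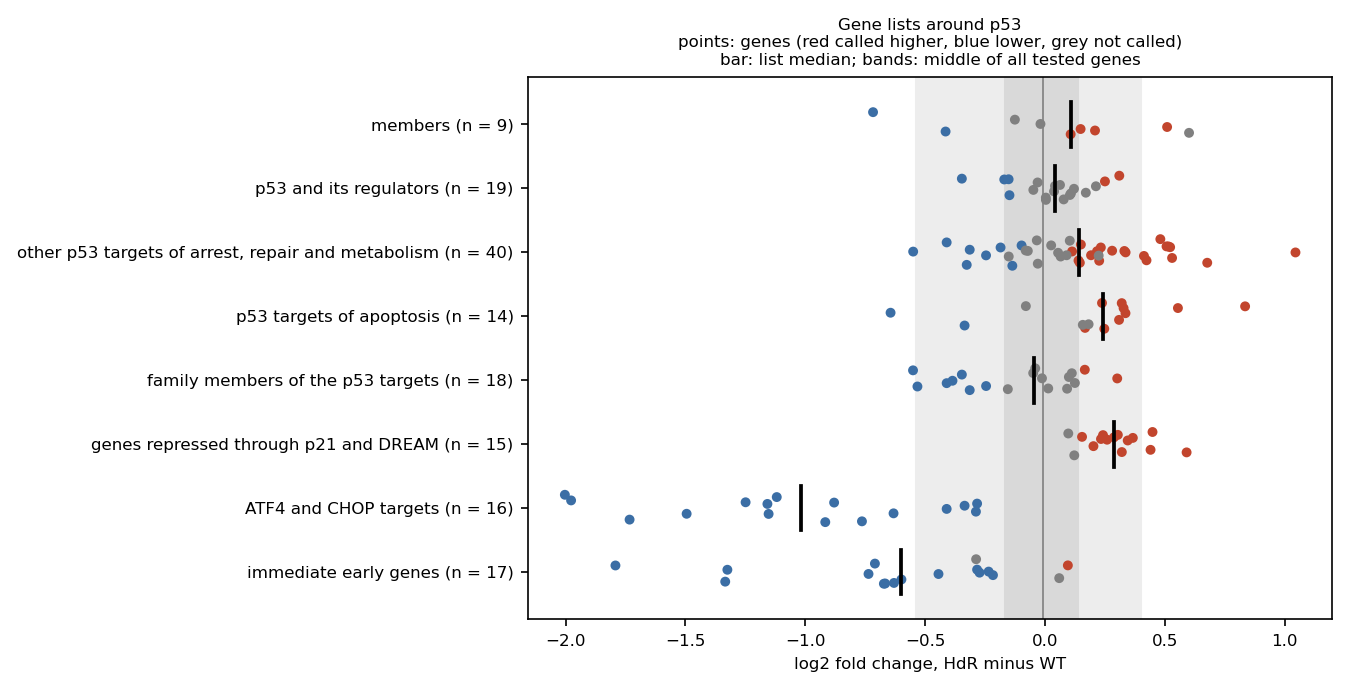
Log2 fold change, HdR minus WT, of the tested genes of each list (points, coloured by their call; black bars, medians), over bands that hold the middle of all tested genes (inner band, -0.17 to 0.14; outer band, -0.54 to 0.40). The members lie on both sides of 0, the ATF4 and CHOP targets all lie below it and the p21 and DREAM list lies above it.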

How the data were processed

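Coverage was measured in 8 RNA-seq libraries, 4 WT and 4 HdR, grouped by their titles. The authors deposited 1 table of signal, whole-number sums of aligned bases per gene symbol (coverage), with no scaling for depth or length. The unit was read from the values: the commonest non-zero value was 302, a pair of 151-base reads, and 16.9% of the low values were its multiples. The submitters' processing notes name GRCm38 as the build. The aligner, counting tool and strand setting are not given in the sources used here.

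Each library was scaled by trimmed-mean (TMM) factors. Genes with a mean of at least 1 per Mb were tested on log2(value + 1) with limma 3.58.1 in R 4.3.3 (lmFit, eBayes with trend and robust variance, statmod 1.5.0), two-sided, adjusted over 11870 genes. Coverage is no count of molecules, so no counting intervals are given. Positions and exon lengths come from GENCODE vM21 and promoters from RefSeq (GRCm38.p6), to which the search for p53 sites was limited; a wider window was planned and not run. Figures used Python 3.11.15 and matplotlib 3.10.9.

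The members and lists were chosen with earlier results of these data known. The naming rule took all members, Rbck1, Trp53, Cdkn1a and up to 3 genes of smallest p per list. Alternatives changed scaling, filter, pseudocount, model, pairing, fold threshold, depth (thinning) and libraries. All 8 libraries entered the main comparison.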

Additional observations from a re-analysis of the deposited data

Results flagged for a closer look

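Within each genotype, a library that stood far from the other 3 was looked for in the 33 named genes, 66 groups of 4 libraries in all, of which chance alone gives about 5%. There were 5 such groups. Sesn1 was at 11.3 per Mb in HdR 4, against 10.1 to 10.2 in the other HdR libraries. Eda2r was at 6.59 in WT 1, against 3.17 to 3.61 in the other WT libraries. Trp53inp1 was at 56.5 in HdR 4, against 63.1 to 63.8. Ddit4 was at 137 in WT 1, against 128 to 129. Trp53inp2 was at 32.8 in HdR 3, against 34.7 to 34.8. HdR 4 and WT 1 account for 2 of the 5 each. HdR 4 was the shallowest library at 2.31 Gb, while WT 1 had 5.04 Gb, and the part of depth in the flagged values was not tested.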

How the results depend on the processing

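Ccng1, Btg2, Aen, Phlda3 and Trp53inp1 kept their direction in all 20 alternatives. Ccng1 and Btg2 were called in all 20 and the other 3 in 19, the exception being the test against a fold of 1.2. With that test 343 of all genes were higher and 544 lower, and 1 member was higher and 1 lower. Also with that test, the number called was 0 for p53 and its regulators, 9 for the other p53 targets, 2 for apoptotic targets, 3 for the p21 and DREAM list, 9 for immediate early genes and 2 for the family list. The regulators gave 3 calls with library totals only. Leaving out 1 library at a time gave 3 to 6 calls for the regulators, 3 to 4 members higher and 2 members lower. Mdm2 changed sign with library totals only (0.0077), with upper-quartile scaling (0.021) and without HdR 2 (0.016, in a range of -0.044 to 0.016 when each library was left out), and Sesn1 after thinning (0.014), all without a call. With no filter, 3 members were lower, Gdf15 being the added one. With at most 3 mismatches, 3 members had a p53 site, and with at most 1, 1 had.

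Deviations of same-numbered WT and HdR libraries from their group means correlated at 0.03, -0.07, -0.22 and 0.02 across genes. Those of differently numbered libraries ran from -0.24 (WT 4 with HdR 2) to 0.25 (WT 3 with HdR 2). With 4 libraries per genotype these values cannot settle whether the replicate numbers pair the libraries. With the replicate block the members gave 4 higher and 2 lower, but Eda2r was called (adjusted p = 0.0465) and Zmat3 was not (0.0942), and 4755 genes were called in place of 5346. Gdf15 had the fewest reads of the members, at 2.81 to 14.4 read-pair equivalents per library.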
